A study of Arabidopsis thaliana with 8 samples.

Results

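NDB2 and AT2G21640 are nuclear genes of Arabidopsis thaliana whose transcripts are used as readouts of stress in mitochondria. They were taken by gene identity, and not by their measured values, as the probe sets that the platform annotation pairs with either gene alone. NDB2 (locus AT4G05020) and AT2G21640 each matched a single probe set, both outside the classes marked as binding transcripts of several genes, so the account rests on 2 of the 22746 probe sets that were not controls. Transcript levels were measured on 8 Affymetrix arrays of ecotype WS (Wassilewskija). Plants had grown upright for 10 days on half-strength Murashige and Skoog agar medium at 22 °C under 16 h of light and 8 h of dark, and shoots and roots were then separated. The 4 groups, of 2 arrays each, were shoots of plants on medium with 40 µM selenate, shoots of control plants without added selenate, roots of plants on 40 µM selenate and roots of control plants. All groups were of this 1 wild-type ecotype, and selenate was present throughout growth, so the values are those of long exposure at 1 dose. Nothing in the labels tells whether the duplicates were separate cultures, and p-values therefore measure no more than the scatter of these samples, which may be technical. The description field of the shoot samples mentions roots while their titles and source names say shoots; groups follow the titles.

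Plant mitochondria carry, beside the proton-pumping complex I, single-polypeptide alternative NAD(P)H dehydrogenases that pass electrons to ubiquinone without pumping protons. NDB2 is one of these enzymes. It sits on the outer face of the inner membrane and oxidises NADH from the cytosol, and with an alternative oxidase it forms a route from NADH to oxygen that bypasses the energy-conserving complexes. Cells respond to impaired mitochondria by changing nuclear transcription, a process called mitochondrial retrograde signalling, and NDB2, the alternative oxidase gene AOX1A and AT2G21640 are standard readouts of it. AT2G21640 is widely used as a marker of oxidative stress in mitochondria. Selenate is a chemical analogue of sulfate, and plants take it up and assimilate it through the sulfate pathway.

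The organ labels were checked against markers. Summed signals of the 6 green tissue markers (including the photosynthesis genes SBPASE, PRK and LHCB4.1) were 119200 to 121200 in selenate shoots and 116100 to 129700 in control shoots, against 1151 to 1248 in selenate roots and 1682 to 1974 in control roots. Summed signals of the 4 root markers (PYK10, OSM34, EXPA7 and EXPA18) were 5855 to 6930 in selenate shoots and 5903 to 9508 in control shoots, against 27350 to 27620 in selenate roots and 23040 to 25330 in control roots. Between 13224 and 14624 probe sets per array reached a signal of 100, which is 20% of the mean to which each array was scaled, and the number of arrays limits the precision. The GAPDH controls have probe sets at both ends of the transcript, and their 3′/5′ ratio, which is higher where RNA is degraded, was 7.34 and 2.95 in selenate shoots 1 and 2 and 2.03 and 10.4 in control shoots 1 and 2, against 0.783 to 0.868 over the root arrays. The shoot arrays therefore stand apart from the root arrays, and among them selenate shoots 1 and control shoots 2 stand apart again. The same ratio of the actin controls was 21.2 to 55.9 over shoot arrays and 4.74 to 9.07 over root arrays. For the ubiquitin controls it was 4.38 to 6.11 over shoot arrays and 2.12 to 2.75 over root arrays. In roots both were higher on the arrays numbered 1 than on those numbered 2. In whole organs, fewer cells of a type and less RNA per cell cannot be told apart.

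NDB2 was measured at very different levels in the organs, and in shoots it was higher with selenate. Its signal was 578.1 and 716 in selenate shoots and 209.6 and 242.7 in control shoots. In roots it was 2806.8 and 3032.9 with selenate and 2237.1 and 2264.2 without. The 4 groups did not overlap at any point, and both arrays of each selenate group lay above both control arrays of the same organ. The share of all tested probe sets that separate in this way is not given. Separation of groups is therefore only a description, here and for the genes below. In order of level the groups were selenate roots, control roots, selenate shoots and control shoots. All 8 arrays gave NDB2 a signal above 100.

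AT2G21640 was ordered the other way by organ. Its signal was 561.5 and 288.6 in selenate shoots and 131.9 and 134.3 in control shoots. In roots it was 41.2 and 92.8 with selenate and 11 and 55.4 without, so all root values lay below 100 and the probe set entered the tests only through its shoot signals. The shoot groups did not overlap with each other or with the roots, while the root groups did overlap. Selenate shoots came first, then control shoots, then selenate roots and control roots, and the gap between the root groups is not larger than their spread.

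**Figure D1:**
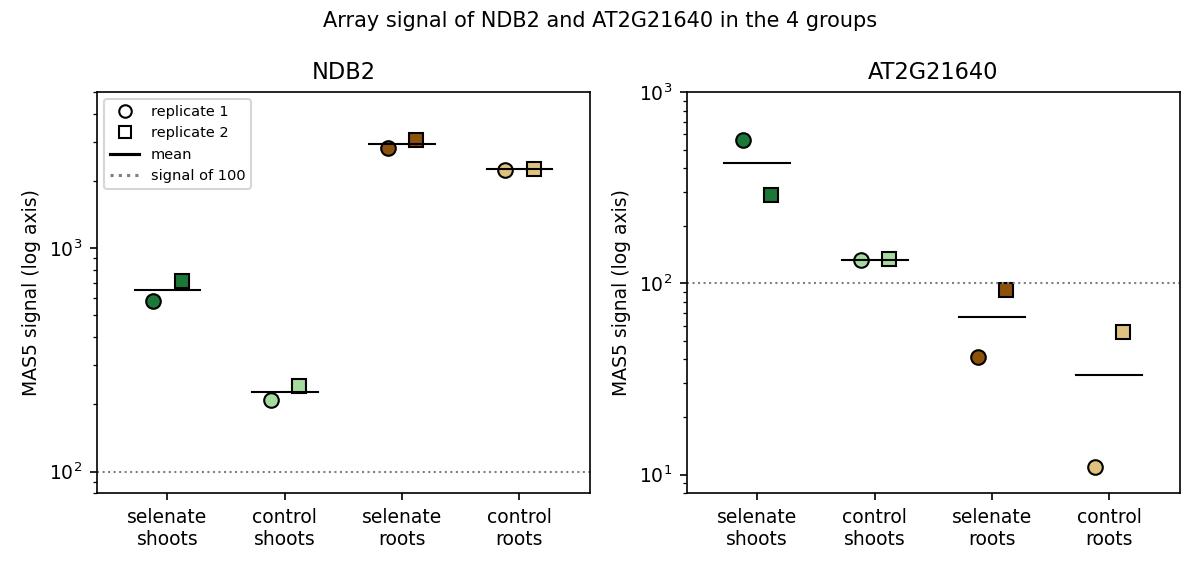
Array signal (log axis) of NDB2 and AT2G21640 on each of the 8 arrays, with circles for replicate 1, squares for replicate 2, bars for group means and a dotted line at a signal of 100. NDB2 lies highest in roots and AT2G21640 highest in shoots, and in shoots both selenate arrays lie above both control arrays for either gene.

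In shoots, the NDB2 transcript was 2.67-fold higher with selenate. Mean signals were 647 ± 97.5 in selenate shoots and 226 ± 23.4 in control shoots (SD, n = 2 each). The difference on the scale of log2(signal + 25) was 1.42 with a standard error of 0.164 and a 95% interval of 1.05 to 1.78, and limma gave an adjusted p of 0.00601 over the 16053 probe sets tested. In this comparison 1.07% of tested probe sets were called higher and 0.797% lower at an adjusted p under 0.05, and 0.374% of them had a larger positive change than NDB2. The call held in all 8 fits that omitted a single array, with log2 differences of 1.27 to 1.56 and limma adjusted p-values of 0.00652 to 0.0397. It ended where only the shoot arrays entered the fit, with a limma adjusted p of 0.144. The difference itself was unchanged at 1.42, with a standard error of 0.226. The main fit shares 1 spread over all groups, so its narrower error draws on the root arrays. The SD of the log2 difference between duplicates was 0.264 in control and 0.277 in selenate roots. In shoots it was 0.511 in control and 0.409 in selenate plants. The fit of the shoot arrays alone called 0 of the 16053 probe sets, and 1318 had an unadjusted limma p under 0.05 in it.

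AT2G21640 differed by a like amount in shoots, but with a wider error, and was not called. Mean signals were 425 ± 193 in selenate shoots and 133 ± 1.7 in control shoots (SD, n = 2 each). The log2 difference was 1.44 with a standard error of 0.44 and a 95% interval of 0.45 to 2.43, a 2.71-fold difference with a limma adjusted p of 0.158. The unadjusted limma p was 0.00947, and 0.343% of tested probe sets had a larger positive change. The pair of selenate arrays was 0.90 apart on the log2 scale and the pair of control arrays 0.02 apart. Over the other settings recomputed for AT2G21640, which leave out the stricter filter that removed it, the difference stayed positive, between 0.99 and 1.89, and was not called, with limma adjusted p-values of 0.0676 to 0.525.

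The pairs of shoot arrays with like GAPDH ratios can be set side by side. Between the arrays with the lower ratios, NDB2 had 716 with selenate and 209.6 without, a ratio of 3.42. Between the arrays with the higher ratios it had 578.1 with selenate and 242.7 without, a ratio of 2.38. For AT2G21640 the lower-ratio arrays gave 288.6 with selenate and 131.9 without, a ratio of 2.19, and the higher-ratio arrays gave 561.5 with selenate and 134.3 without, a ratio of 4.18. Because both selenate arrays lay above both control arrays for either gene, every pairing had to come out higher with selenate. The split is therefore no test of RNA degradation. The pair with the larger ratio differed between the genes. The 3′/5′ ratio of the ubiquitin controls was 5.24 and 6.11 in selenate shoots and 4.38 and 4.88 in control shoots, so that it was higher with selenate without overlap, and its part in the shoot results was not tested. Among the root markers, OSM34, an osmotin-like stress protein gene, was called higher in selenate shoots (log2 difference 1.28, limma adjusted p = 0.0148), and the other 3 were not called. The part of OSM34 in the NDB2 result was not tested. Summed root markers of the shoot groups overlapped, but PYK10 made up most of each sum, averaging 6202 in selenate and 7618 in control shoots. The sums therefore say little on the others. EXPA7 averaged 35.35 in selenate and 12.35 in control shoots, and EXPA18 went the other way, with 16.7 and 31.45.

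In roots, neither gene was called in the selenate comparison. NDB2 averaged 2920 ± 160 in selenate roots and 2251 ± 19.2 in control roots (SD, n = 2 each). The log2 difference was 0.37 with a standard error of 0.164 and a 95% interval of 0.002 to 0.74, which is 1.29-fold, with a limma adjusted p of 0.333. NDB2 passed as higher in roots where only the 4 root arrays entered the fit (limma adjusted p = 0.0334) or where selenate shoots 1 and control shoots 2 were both left out (limma adjusted p = 0.0461). In this comparison 3.35% of tested probe sets were called higher and 2.37% lower.

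AT2G21640 averaged 67 ± 36.5 in selenate roots and 33.2 ± 31.4 in control roots (SD, n = 2 each). The log2 difference was 0.71 with a standard error of 0.44 and a 95% interval of -0.28 to 1.71 (limma adjusted p = 0.566). The selenate arrays were 0.83 apart on the log2 scale, the control arrays were 1.16 apart, and the root groups overlapped. Of the 6 green tissue markers, LHCB4.1 and LHCB4.2, antenna proteins of photosystem II, were called lower in selenate roots (log2 differences -0.69 and -1.82, limma adjusted p = 0.0441 and 0.000106). Of the 4 root markers, EXPA7, an expansin gene of root hairs, was called lower in selenate roots, where it averaged 208.2 against 496 in control roots (log2 difference -1.16, limma adjusted p = 0.0138). EXPA18, another root hair expansin gene, had a log2 difference of -1.34 (limma adjusted p = 0.178), and PYK10 and OSM34 were not called. The part of these marker changes in the root values of NDB2 and AT2G21640 was not tested.

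As a log2 difference, the response of NDB2 was larger in shoots than in roots. This order depends on the scale. The mean signal went from 226 to 647 in shoots and from 2251 to 2920 in roots, so the rise in signal itself was larger in roots. The difference of the responses, shoots minus roots, was 1.04 on the log2 scale with a standard error of 0.231 and a 95% interval of 0.52 to 1.57 (limma adjusted p = 0.0425). In this test 1.42% of probe sets were called with a higher and 2.28% with a lower response in shoots. The NDB2 call lay close to the threshold and remained in only 2 of the 8 fits that left out 1 array, with limma adjusted p-values of 0.0207 to 0.197. It ended without any 1 of the root arrays and without either selenate shoot array, while the log2 difference stayed between 0.90 and 1.19. For AT2G21640 the difference of the responses was 0.72 with a 95% interval of -0.68 to 2.13 (limma adjusted p = 0.661), an interval that holds both no difference and one as large as that of NDB2.

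Between organs, NDB2 was called lower in shoots, with and without selenate. It was 9.08-fold lower in control shoots than in control roots, a log2 difference of -3.18 with a 95% interval of -3.55 to -2.81 (limma adjusted p = 2.89e-07). In selenate-grown plants it was 4.4-fold lower in shoots than in roots, with a log2 difference of -2.14 and a 95% interval of -2.51 to -1.77 (limma adjusted p = 3.14e-06). Among tested probe sets, 37.5% were called lower and 25.7% higher in control shoots than in control roots. With selenate 39.5% were called lower and 25.6% higher, so an organ call is common on these arrays. The median log2 difference of all tested probe sets was -0.21 in control and -0.25 in selenate organs, and the NDB2 values are to be read against it. The GAPDH 3′/5′ ratio was 2.03 to 10.4 over shoot arrays and 0.783 to 0.868 over root arrays. Organ and RNA degradation can therefore not be told apart in the organ differences of either gene.

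AT2G21640 had the opposite order, which is given here without a test, because the probe set passed the filter on low signals only through the shoot arrays. The ratio of mean signals, shoots over roots, was 6.34 with selenate and 4.01 without. On the scale of log2(signal + 25) the differences were 2.28 with selenate and 1.56 without. The root signals lie near the pseudocount of 25, so the size of these differences depends on it. Without control roots 1, the array with a signal of 11, the control difference was 0.98.

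**Figure D2:**
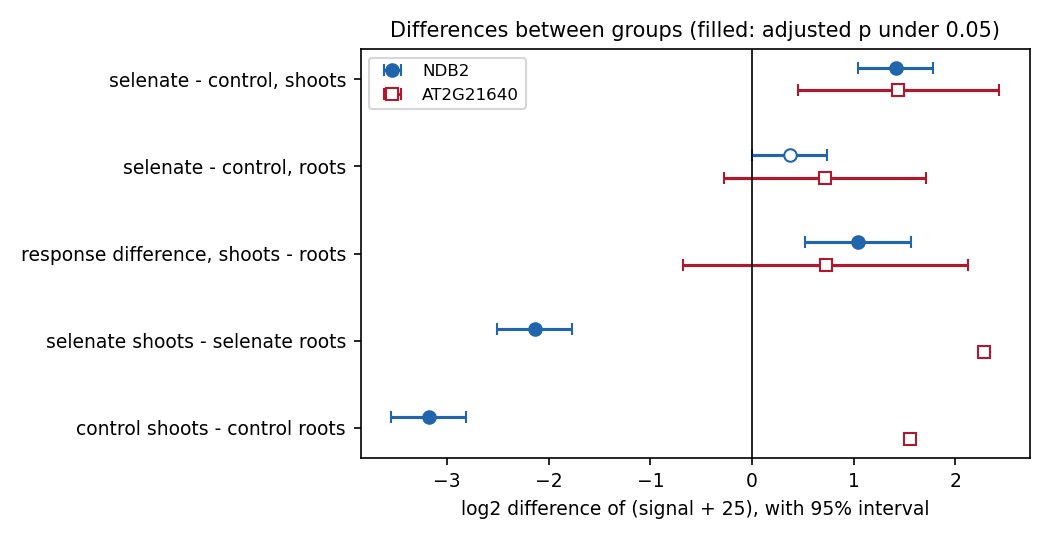
Differences between groups for NDB2 (circles) and AT2G21640 (squares) on the scale of log2(signal + 25), with 95% intervals; filled symbols mark a limma adjusted p under 0.05, and the organ differences of AT2G21640, given without a test, are drawn as points without intervals. The selenate difference in shoots is 1.42 for NDB2 and 1.44 for AT2G21640.

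Of the 7 alternative NAD(P)H dehydrogenase genes, 5 had a probe set on the annotation table and 4 were tested. NDB2 was the single one called in the selenate comparisons, higher in shoots, where 1.07% of all tested probe sets were called higher. The median log2 difference of the 4, NDB2 included, was 0.64 in shoots and 0.01 in roots, against -0.02 for all tested probe sets in either organ. The shoot median is the value of no gene. It lies between those of NDB2 and NDB3 and those of NDB1 and NDC1, whose shoot groups overlapped. NDB3, a relative of NDB2 in the NDB subfamily, had signals of 210.2 and 170.9 in selenate shoots and 43.3 and 101.9 in control shoots. Its groups did not overlap, and the log2 difference was 1.21 ± 0.313 (SE) with a limma adjusted p of 0.1. In roots it had 68.1 and 101.8 with selenate and 80.9 and 79.7 without, a log2 difference of 0.04. NDB1, which oxidises NADPH at the outer face of the inner membrane, had 581.5 and 515.9 in selenate shoots and 524.7 and 653.3 in control shoots, and the groups overlapped. In roots NDB1 had 245.4 and 214.6 with selenate and 276.2 and 273.7 without, a log2 difference of -0.24 with a limma adjusted p of 0.681. NDC1, which is found in chloroplasts as well as mitochondria, had 692 and 860.7 in selenate shoots and 876.8 and 610.8 in control shoots, and 205.8 and 227 in selenate roots and 205.4 and 237.7 in control roots. NDB4 stayed below 100 on every array and was not tested.

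AT2G21640 belongs to a set of 5 genes that respond to many kinds of reactive oxygen species, of which 4 were on the annotation table and 3 were tested. Of these, AT1G19020 was called, higher in roots, where 3.35% of all tested probe sets were called higher. AT1G19020 had 4793.1 and 5224.9 in selenate roots and 1519 and 1491.6 in control roots, a log2 difference of 1.72 (limma adjusted p = 0.000301). In shoots it had 166.1 and 139.5 with selenate and 162.4 and 208.3 without, a log2 difference of -0.24. Its response was lower in shoots than in roots by a test of that difference (log2 -1.96, limma adjusted p = 0.00226). AT1G05340 was not called in either organ, with log2 differences of 0.71 in shoots and -0.11 in roots, and AT1G57630 was too weak to be tested. The median log2 difference of the 3 tested genes was 0.71 in shoots and 0.71 in roots, against -0.02 for all tested probe sets in either organ. The shoot median is the value of AT1G05340, which had 52.3 and 46.1 in selenate shoots and 45.8 and 3.9 in control shoots. The root median is the value of AT2G21640, whose root groups overlapped. Both values thus rest on signals below 100.

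Both genes belong to the mitochondrial dysfunction stimulon, a group of nuclear genes that respond together when mitochondria are impaired. Of its 23 listed genes 11 were on the annotation table and 9 were tested. The list holds both genes and was chosen with earlier results of these data known, so its counts are a description and not separate support. In shoots 3 of the 9 were called higher and 0 lower, against 1.07% and 0.797% of all tested probe sets, with a median log2 difference of 0.79 against -0.02 over all. In roots 3 were called higher and 0 lower, against 3.35% and 2.37% of all, with a median of 0.65 against -0.02 over all. Those called in shoots were NDB2, AT5G09570 and AT2G41730. AT5G09570 had 378.1 and 356.1 in selenate shoots and 138.7 and 141.3 in control shoots, a log2 difference of 1.25 (limma adjusted p = 0.0113). In roots it had 149.9 and 168 with selenate and 122.5 and 127.9 without, a log2 difference of 0.29 that was not called. AT2G41730 had 234.1 and 215.8 in selenate shoots and 66.7 and 80.6 in control shoots, a log2 difference of 1.34 (limma adjusted p = 0.0111), and its probe set may bind transcripts of other genes. In roots AT2G41730 had 330.5 and 287.4 with selenate and 199.2 and 175.2 without, groups that did not overlap. That log2 difference of 0.65 was not called (limma adjusted p = 0.0963), but passed in the fit of the 4 root arrays alone (0.0293) or without both shoot arrays of high GAPDH ratio (0.0361). AT5G09570 and AT2G41730 lost the shoot call without either selenate shoot array, with limma adjusted p-values of 0.0549 to 0.0789.

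The members called in roots were AT5G14730, AT2G32020 and AT5G51440. AT5G14730 had 1730.4 and 1912 in selenate roots and 545 and 555.8 in control roots, a log2 difference of 1.68 (limma adjusted p = 0.000835), against 0.16 in shoots. The difference between its responses, shoots minus roots, was -1.52 (limma adjusted p = 0.0179), opposite in sign to that of NDB2. AT2G32020 had 925.6 and 990.2 in selenate roots and 347.7 and 254.1 in control roots, a log2 difference of 1.61 (limma adjusted p = 0.00628). AT5G51440, which is also on the list of mitochondrial chaperones and proteases, had 481 and 512.5 in selenate roots and 177.8 and 150.4 in control roots, a log2 difference of 1.47 (limma adjusted p = 0.00409). In shoots AT5G51440 had 106.2 and 148.8 with selenate and 74.1 and 51.7 without, a log2 difference of 0.79 that was not called. The root calls of AT2G32020 and AT5G51440 each ended without control roots 2 or selenate roots 2, and that of AT2G32020 also without selenate roots 1, with limma adjusted p-values of 0.0577 to 0.0841.

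**Figure D3:**
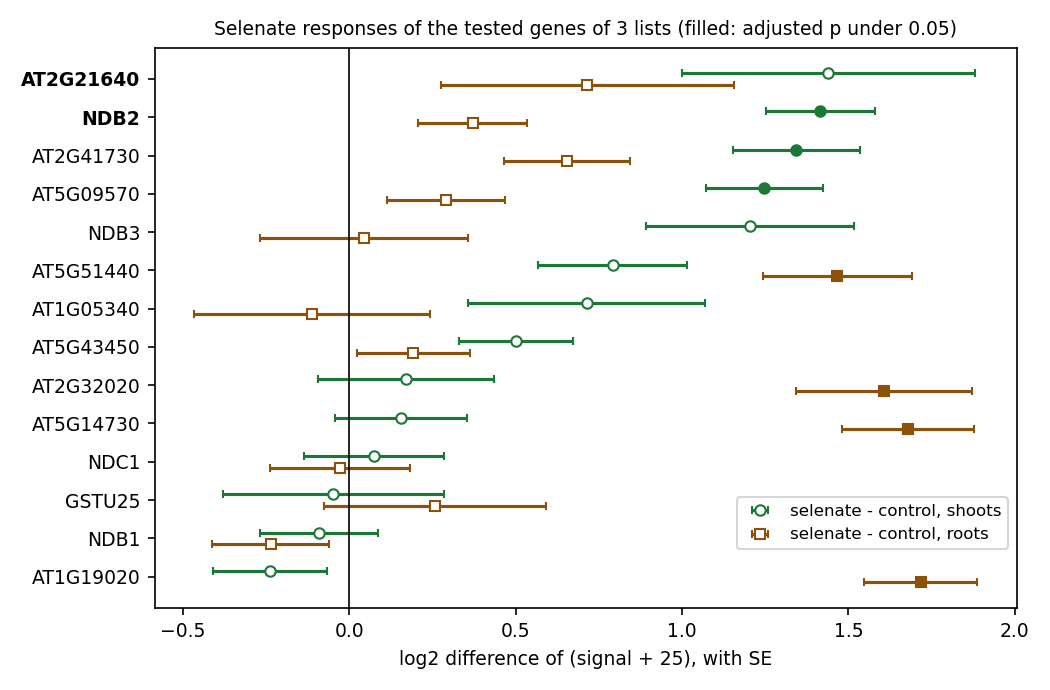
Selenate responses of the tested genes on the lists of alternative NAD(P)H dehydrogenases, reactive oxygen hallmark genes and the mitochondrial dysfunction stimulon, as log2 differences of (signal + 25) with SE; circles stand for shoots, squares for roots, and filled symbols for a limma adjusted p under 0.05. The shoot calls are NDB2, AT2G41730 and AT5G09570, and the root calls are AT1G19020, AT5G14730, AT2G32020 and AT5G51440.

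Of 26 tested genes on the lists of nuclear subunits of complexes I to V and cytochrome c, 0 were called by limma in either organ. They include COX11, an assembly factor and not a subunit. Over all tested probe sets 1.07% were called higher and 0.797% lower in shoots, and 3.35% and 2.37% in roots. With shares this small, 0 calls of 26 say little about the chain. An unadjusted limma p under 0.05 was reached by 5 of the 26 in shoots and by 0 in roots. Over all 16053 probe sets it was reached by 2331 in shoots and 2389 in roots. In shoots 22 of the 26 had a positive difference, with a median of 0.18 and a range of -0.40 to 0.70, against 47.7% positive over all tested probe sets. In roots 9 of the 26 were positive, with a median of -0.03, against 46.6% over all. The shoot differences of NDB2 and AT2G21640 lay above the highest value of these 26. Mitochondrial antioxidant enzymes gave 3 tested genes, 0 of them called by limma, with a median log2 difference of -0.14 in shoots and -0.01 in roots. Mitochondrial chaperones and proteases gave 2 tested genes, of which AT5G51440 was called, in roots. Alternative oxidases, regulators of mitochondrial retrograde signalling, and mitochondrial uncouplers with dicarboxylate carriers had no probe set that could be named here, so the partner oxidase of NDB2 was not analysed here. Over the 10 lists, 44 of 124 genes were tested.

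**Figure D4:**
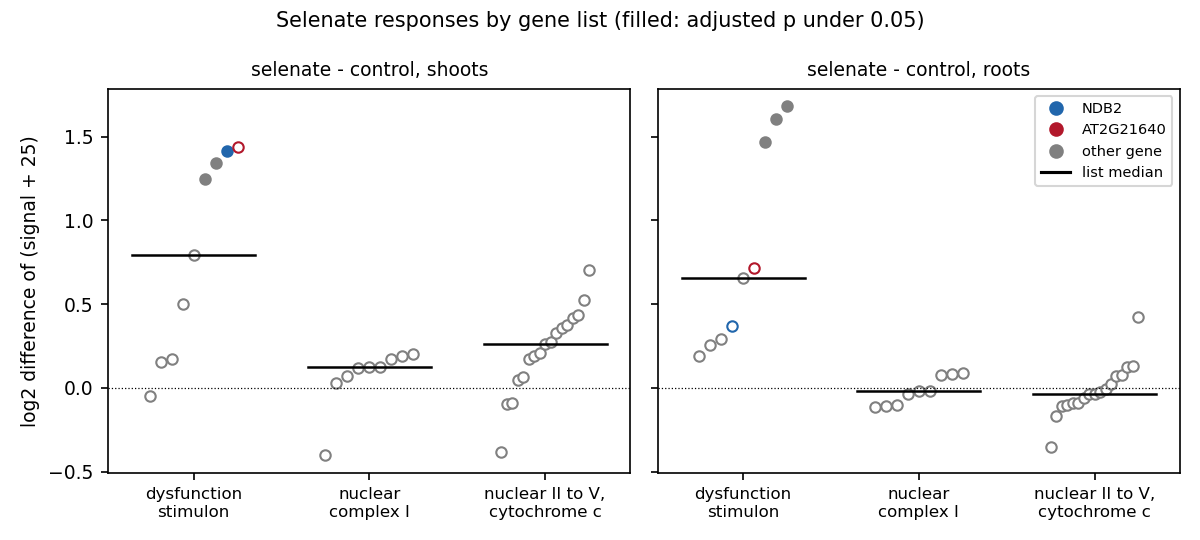
Log2 differences of (signal + 25) between selenate and control plants in shoots (left) and roots (right). Points are tested genes of the mitochondrial dysfunction stimulon and of the nuclear respiratory lists, with bars at list medians and filled points for a limma adjusted p under 0.05. In shoots NDB2 (1.42) and AT2G21640 (1.44) lie above all genes of the respiratory lists, whose highest value is 0.70.

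The genes whose profiles were most like those of the pair were sought among 8688 tested probe sets that match a single gene, by Pearson's r of log2 values over the 8 arrays. These correlations are descriptions, since the arrays share organs and treatments. Over all arrays the 5 genes most like NDB2 were AT3G27150 (r = 0.9957), AT5G18840 (0.9952), AT2G17280 (0.9934), AT5G25940 (0.9923) and AT5G56350 (0.9923). The first 3 were themselves called higher in selenate shoots, with log2 differences of 1.48, 1.31 and 1.16 and limma adjusted p-values of 0.0186, 0.0138 and 0.0195. With each organ's mean subtracted, so that the organ difference no longer sets the order, the nearest were AT5G49680 (0.9829), AT5G09570 (0.9787), AT5G53420 (0.9773), LPR2 (0.9767) and AT4G19390 (0.9748). AT5G09570, of the stimulon described above, was therefore second of the 8688 in likeness to NDB2 within organs.

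For AT2G21640 the nearest over all arrays were AT3G21690 (r = 0.9868), AT5G65380 (0.9853), AT4G12640 (0.9766), AT2G20710 (0.9675) and AT5G46680 (0.9646), none of which was called in either selenate comparison. With organ means subtracted they were AT3G21690 (0.9622), AT5G65380 (0.958), VPS46.2 (0.9537), TBL16 (0.9523) and TPP2 (0.9512). NDB2 and AT2G21640 were not among each other's nearest. Their own r was -0.58 over the 8 arrays, where the opposite organ levels enter, and 0.75 with organ means subtracted.

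No tested neighbour of either gene was called in the selenate comparisons. AT4G05040, the tested gene nearest to NDB2 among the 2 on either side in the RefSeq order, had log2 differences of -0.03 in shoots and -0.60 in roots (limma adjusted p = 0.98 and 0.196). Beside AT2G21640, RD2 had 0.32 in shoots and -0.06 in roots, and AT2G21630 had -0.23 in shoots and 0.26 in roots, with limma adjusted p-values of 0.526 and 0.775 in shoots.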

How the data were processed

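The authors deposited MAS5 signals, a linear intensity for each probe set (per the submitters' processing notes, which give no version here). MAS5 subtracts mismatch signals and summarises each array alone, so weak signals have large relative errors. Each array's mean signal, trimmed by 2% at either end, lies near 500. Samples were grouped by their titles. Of 22810 probe sets, 64 controls were left out, and the 16053 that reached 100 on at least 2 of 8 arrays were tested as log2(signal + 25), which understates changes of weak genes.

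Models were fitted in limma 3.58.1 (R 4.3.3) over all 8 arrays with 1 mean per group, a variance trend and 4 residual and 5.12 prior degrees of freedom. All groups shared 1 spread, although it was wider between shoot duplicates than between root duplicates. Benjamini-Hochberg adjustment ran over all tested probe sets, with calls at an adjusted p under 0.05. The procedure was run on simulated data with a single normal spread per organ. The scatter of these arrays also differed with signal, so that run does not check the errors given here.

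On the platform annotation, 13513 probe sets have 1 gene, 503 have several and 8730 have no listed gene; RefSeq (TAIR10.1) held 13436 of those with 1 gene. No source used here gives the genome build of the probe sets, and coordinates are left out. A gene with several probe sets was represented by the brightest. Named were both genes, every measured member of the lists of alternative dehydrogenases, alternative oxidases and hallmark genes, up to 4 called members of each other list, and the 5 probe sets most like each gene. The members, lists and most settings were chosen with earlier results of these data known. Marker genes, neighbours and AT5G09570's rank are given beside the results they touch.

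Other settings were the pseudocount, the filter, the scaling, the variance trend, the arrays in the fit, a replicate block and each array left out.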

Additional observations from a re-analysis of the deposited data

Results flagged for a closer look

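On the log2 scale, the selenate response of NDB2 differed between the organs by a test of the difference itself, close to the threshold. It was 1.42 in shoots and 0.37 in roots on the scale of log2(signal + 25), a difference of 1.04 (shoots minus roots, limma adjusted p = 0.0425). In each organ both selenate arrays lay above both control arrays, a description given without the share of probe sets that separate so.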

How the results depend on the processing

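No direction of a called value turned in any setting tried. For NDB2 in shoots the log2 difference of 1.42 was no longer called with only the shoot arrays in the fit (limma adjusted p = 0.144), nor with the replicate block (0.135). For NDB2 in roots the difference of 0.37 became called with only the root arrays (0.0334) and without both shoot arrays of high GAPDH ratio (0.0461); in that second fit each shoot group keeps 1 array, which is assumed to vary like the roots. The NDB2 difference between responses lost its call with the pseudocount raised to 20% of the scaled mean (0.83, limma adjusted p = 0.0615), with no filter (1.04, 0.0502), with a stricter filter (1.04, 0.0505), without a variance trend (1.04, 0.0636) and with the replicate block (1.04, 0.17). With 1 array left out it was 0.90 to 1.19. AT2G21640 in control organs gave 0.98 to 2.13 with 1 array left out. The stricter filter removed AT2G21640, which could not be fitted there.

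With each array centred on its median, all tested probe sets had median organ differences of -0.07 in control and -0.10 in selenate plants, and NDB2 (-3.05, -1.99) and AT2G21640 (1.69, 2.43) kept their directions.

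Of the 44 tested list genes, 3 were called in shoots and 4 in roots, all higher, against 1.07% and 3.35% of all tested probe sets called higher. Leaving out 1 array gave 1 to 5 in shoots and 2 to 4 in roots. The replicate block gave 2 in roots, where limma called 324 probe sets higher and 113 lower in all. In shoots it gave 0, where limma called 0 probe sets in all and 1756 had an unadjusted p under 0.05. Only the shoot arrays gave 0, with 1318 such probe sets. Leaving out both shoot arrays of high GAPDH ratio gave 6 in shoots. The labels do not say that replicate numbers mark anything shared; deviations of same-numbered arrays correlated at -0.49 in shoots and 0.34 in roots. With the block AT2G21640 in roots had a standard error of 0.288 and a limma adjusted p of 0.415. Crossed shoot pairing, added after seeing the data, gave 12 list genes in shoots, of 797 higher and 781 lower calls there. The causes were not tested. The 2 arrays per group, and AT2G21640 signals below 100 in roots, limit the precision.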
